A study of Mus musculus with 12 samples.

Results

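A set of 10 integrin subunits that leukocytes use for adhesion and migration was followed through 4 groups of sorted mouse epidermal cells. They were taken by symbol from the deposited table and are Itgam, Itgax, Itgal, Itgb2, Itga4, Itgb1, Itgb7, Itgav, Itgae and Itga6. All 10 were among the 23420 symbols of the table, and 9 of the 10 were among the 10023 genes that entered the tests, which required a value above 0 in at least 3 of the 12 libraries. Itgae had too few values above 0 to be tested.

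Cells positive for CD45, CD11b and MHC class II and negative for CD3 were sorted from epidermis, 100 cells to a tube, from Cbfβ2 knockout mice (KO) and wild-type mice (wt). Cbfβ2 is a splice form of the beta subunit that core-binding factor shares among Runx transcription factors. The groups were KO at 1.5 months of age (1.5M KO), wild type at 1.5 months (1.5M wt), KO at day 5 after birth (P5 KO) and wild type at day 5 (P5 wt), with 3 libraries each. The labels call these libraries independent preparations and do not say whether they came from separate animals, so the p-values measure the spread between preparations, which may be technical. The labels give neither a Cre driver nor the cells in which the knockout acts. CD11b, the protein made from Itgam, was part of the sorting gate in every group.

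Integrins are paired alpha and beta chains that join the outside of a cell to its actin skeleton. They are switched from a bent, resting form to an extended, binding form when talin and kindlin bind the beta tail. The beta2 chain pairs with CD11a, CD11b or CD11c and occurs on leukocytes only, binding ICAM adhesion molecules and complement fragments. The alpha4 chain pairs with beta1 or beta7 and binds VCAM-1 or MAdCAM-1. The alphav chain pairs with several beta chains, binds matrix proteins that carry the RGD peptide, and with some partners releases active TGF-β from its latent complex. In the epidermis the alphaE chain with beta7 binds E-cadherin, and active TGF-β is needed to keep Langerhans cells, the resident antigen-presenting cells, in place.

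Values are molecule counts that the authors scaled to one total per library, called scaled counts here. They are given in the order of libraries 1, 2 and 3, with SD over n = 3. Depth was 74620 to 77419 molecules per library in 1.5M KO against 40254 to 51848 in 1.5M wt. At P5 it was 30913 to 51001 in KO libraries against 34192 to 52208 in wt libraries. Members were low-level transcripts at this depth, with at most 212 molecules over the 3 libraries of a group. Where no molecule was seen in a group, counting allows up to 3, which is 0.485 scaled counts in 1.5M KO and 0.831 in 1.5M wt. At P5 the limit is 0.907 scaled counts in KO and 0.895 in wt, for counting error only. A fold given below as at least a value divides the observed mean of the other group by this limit. It leaves out the error of that mean.

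Markers of other cell types differed between the groups, so their summed levels are given before the results. Of the 7 CD3 and T cell symbols chosen, 4 were in the table, and their only molecule was 1 of Cd3d in P5 KO. The 10 macrophage markers summed to 373 to 422 scaled counts in 1.5M KO, with 9 of 10 detected, against 43.6 to 57.1 in 1.5M wt, with 6 of 10 detected and Mrc1, Fcgr1, Mertk and Cd163 at 0. C1qa, C1qb and C1qc made up 329 to 365 of this sum in 1.5M KO and 5.33 to 9.30 in 1.5M wt. Of 9 tested macrophage markers 4 were called higher and 1, Apoe, lower in 1.5M KO, where Apoe averaged 4.22 ± 1.30, against 30.8 ± 5.90 in 1.5M wt. The same markers summed to 140 to 180 in P5 KO and 126 to 156 in P5 wt. The 10 Langerhans cell markers summed to 153 to 168 in 1.5M KO against 471 to 578 in 1.5M wt, and to 70.7 to 90.0 in P5 KO, where Cd207 was at 0, against 136 to 154 in P5 wt. Of these 10, 6 were called lower in KO at each age, and 1 was called higher at 1.5M. Means that went the other way at 1.5M included Id2, at 12.65 in KO and 3.21 in wt, and Csf1r, at 76.85 in KO and 64.69 in wt. In P5 KO the neutrophil list reached 47.0 to 229 scaled counts, against 3.02 to 10.3 in P5 wt, with Mpo and Elane at 0 in both. The monocyte list reached 63.6 to 121 in P5 KO against 49.0 to 65.1 in P5 wt, with 4 of its 5 tested members called higher. At 1.5M it reached 83.0 to 110 in KO (5 of 8 detected) against 52.2 to 76.4 in wt (1 of 8), and 1 of 5 was called higher. The whole 1.5M wt sum was Csf1r, which is also on the Langerhans cell list. In 1.5M KO Csf1r averaged 76.85 of a mean sum of 100.5. The keratinocyte list reached 214 to 633 in P5 KO, against 62.5 to 92.8 in P5 wt. Haemoglobin and other erythroid genes gave 357 and 482 scaled counts in P5 KO libraries 1 and 2 and 0.4 in library 3, against 0 to 4.26 in P5 wt. The part of these differences in the integrin values was not tested. Cbfb, the gene of the targeted subunit, had 1.92, 0.99 and 2.4 scaled counts in 1.5M KO against 13.8, 7.15 and 10.7 in 1.5M wt, and 3.63, 1.45 and 2.4 in P5 KO against 4.97, 4.34 and 3.91 in P5 wt. Every KO library was below every wt library of its age, a pattern seen in 7.18% of all tested genes at 1.5M. At P5 the highest KO value, 3.63, lay close to the lowest wt value, 3.91, and Cbfb was not called. The share of all genes with this pattern at P5 is not given here. The table has a single row for the gene and does not separate Cbfβ2 from the other splice form.

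**Figure D1:**
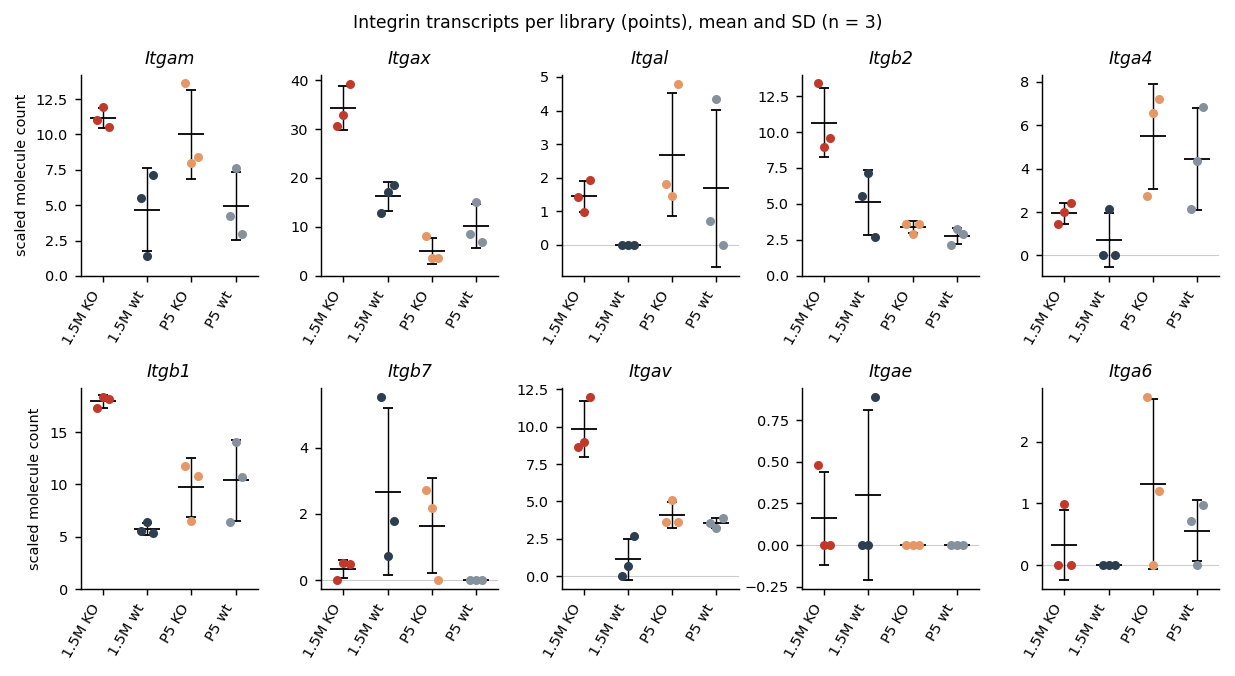
Scaled molecule counts of the 10 integrin genes (vertical axis, linear, a separate scale for each gene) in the libraries of 4 groups (horizontal axis). Points are libraries 1 to 3, and the horizontal bar and whiskers are the mean and SD. Itgav and Itgb1 stand highest in 1.5M KO and lowest in 1.5M wt, while Itgae was above 0 in 2 of the 12 libraries.

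At 1.5 months the KO cells held more Itgav and Itgb1 transcript than wild-type cells. These 2 of the 9 tested members rose, and none fell. Over all 10023 tested genes 3.24% were called higher and 2.04% lower in this comparison. In such samples of many cells, fewer cells of a type and less RNA per cell cannot be told apart.

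Itgav encodes the alphav chain, which pairs with beta1, beta3, beta5, beta6 or beta8. It had 8.63, 8.95 and 11.98 scaled counts in 1.5M KO against 0, 0.72 and 2.67 in 1.5M wt, or 61 molecules against 4. Each KO library was above each wt library, and wt library 1 had no molecule. The log2 fold change, taken as throughout on scaled count + 1, was 2.54 (SE 0.42, 95% interval 1.67 to 3.42), with an adjusted p of 0.000338 from limma. The call held in 22 of 22 alternative fits, with an adjusted p of 1.41e-05 to 0.01. Itgb1 encodes beta1, the partner of many alpha chains and a receptor chain for collagen, laminin, fibronectin and VCAM-1. It had 17.3, 18.4 and 18.2 scaled counts in 1.5M KO against 5.53, 6.44 and 5.33 in 1.5M wt, or 111 molecules against 21. Here too the groups were apart, and within each group the libraries lay close together. The log2 fold change was 1.49 (SE 0.31, 95% interval 0.85 to 2.13; adjusted p = 0.00339, limma). This call held in 21 of 22 alternatives and was lost when all libraries were thinned to equal depth, where the log2 fold change was 1.15 (adjusted p = 0.234).

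The CD11 and beta2 chains lay higher in the 1.5M KO libraries without passing the threshold. Itgam, the CD11b chain that with beta2 forms complement receptor 3, had 11.03, 11.9 and 10.5 scaled counts in 1.5M KO against 5.53, 1.43 and 7.11 in 1.5M wt (log2 fold change 1.27, SE 0.41, adjusted p = 0.0783, limma). Since the sort selected for its protein, its level is not independent of how cells were chosen. Itgax, the CD11c chain known from dendritic cells and tissue macrophages, had 30.7, 32.8 and 39.3 in 1.5M KO against 12.9, 17.2 and 18.7 in 1.5M wt (log2 fold change 1.04, SE 0.32, adjusted p = 0.0625). It passed the threshold in 6 of 22 alternatives, whose adjusted p covered 0.00271 to 0.336. Itgb2, the shared beta2 chain, had 13.4, 8.95 and 9.58 against 5.53, 7.15 and 2.67 (log2 fold change 0.99, SE 0.37, adjusted p = 0.152). All 3 genes had every KO library above every wt library. Itgal encodes CD11a, the alpha chain of LFA-1. It had 1.44, 0.99 and 1.92 scaled counts in 1.5M KO, from 9 molecules, and no molecule in 1.5M wt. Its KO mean was 1.74 times the limit for 0 molecules over the wt group (adjusted p = 0.272, limma). Together with Itgav and Itgb1, 6 of the 9 tested members had a lowest 1.5M KO library above the highest 1.5M wt library, a pattern seen upward in 13.9% of all genes tested.

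The remaining members were sparse. Itga4 encodes alpha4, the chain of VLA-4. It had 1.44, 1.99 and 2.4 scaled counts in 1.5M KO against 0, 2.15 and 0 in 1.5M wt, and the groups overlapped (adjusted p = 0.372, limma). Itgb7 was the 1 tested member with every 1.5M KO library below every 1.5M wt library, a pattern seen in 7.18% of all genes tested. It had 0, 0.5 and 0.48 in 1.5M KO against 5.53, 0.72 and 1.78 in 1.5M wt, or 2 molecules against 9 (log2 fold change -1.27, SE 0.56, adjusted p = 0.266). Itgae, its alphaE partner, gave 1 molecule in 1.5M KO, 1 in 1.5M wt and none in the P5 groups. Itga6, a laminin-binding chain of basal keratinocytes and some leukocytes, gave 2 molecules in 1.5M KO and none in 1.5M wt (adjusted p = 0.839). Over the 9 tested members the median log2 fold change was 1.04, against 0.09 over all genes. Macrophage marker sums were higher and Langerhans marker sums lower in the same KO libraries (values above), and these were also the deepest libraries. The fit with libraries thinned to equal depth called 1 member, Itgav.

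At P5 no member was called in either direction, while 1.15% of all tested genes were called higher and 0.649% lower in P5 KO. By limma, 3 of the 9 members had an unadjusted p under 0.05, as had 12.8% of all tested genes, and every alternative fit also called 0. Itgam had 13.6, 8.0 and 8.4 scaled counts in P5 KO against 4.26, 7.59 and 2.93 in P5 wt, and the groups did not overlap (log2 fold change 0.93, SE 0.41, adjusted p = 0.33). How many of all genes were apart at P5 is not given here. Itgax had 8.17, 3.64 and 3.6 in P5 KO against 8.53, 15.2 and 6.84 in P5 wt. KO library 1 reached into the wt range (log2 fold change -0.88, SE 0.32, adjusted p = 0.215). Itgb7 had 2.72, 2.18 and 0 in P5 KO, from 6 molecules, and no molecule in P5 wt. Its KO mean was 1.83 times the limit for 0 molecules over the wt group (adjusted p = 0.369, limma). Mean neutrophil and monocyte marker sums were also higher in P5 KO than in P5 wt (values above), and their part in the integrin values was not tested.

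The other members overlapped between the genotypes at P5. Itgav had 3.63, 5.09 and 3.6 scaled counts in P5 KO against 3.55, 3.25 and 3.91 in P5 wt (log2 fold change 0.15, 95% interval -0.73 to 1.03). Itgb1 had 11.8, 6.55 and 10.8 in P5 KO against 6.39, 14.1 and 10.7 in P5 wt (log2 fold change -0.07, 95% interval -0.71 to 0.57). Whether these effects differed from those at 1.5 months is tested directly below. Itgb2 averaged 3.38 ± 0.41 in P5 KO and 2.77 ± 0.58 in P5 wt. Itga4 averaged 5.49 ± 2.42 in P5 KO and 4.44 ± 2.35 in P5 wt, and Itgal 2.69 ± 1.84 in P5 KO and 1.68 ± 2.33 in P5 wt. Itga6 gave 4 molecules in P5 KO and 2 in P5 wt. The median log2 fold change of the 9 was 0.27, against -0.01 over all genes.

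**Figure D2:**
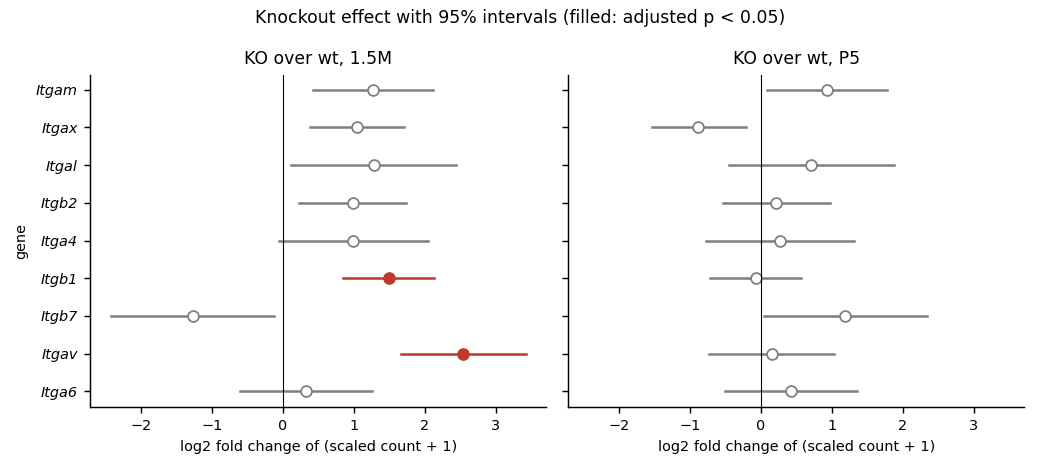
Log2 fold change of KO over wt on scaled count + 1 (horizontal axis) with its 95% interval for the 9 tested genes (vertical axis), at 1.5M on the left and P5 on the right. Filled points passed an adjusted p of 0.05 in limma. Itgav (2.54) and Itgb1 (1.49) pass at 1.5M, and no gene passes at P5.

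The knockout effect itself was compared between the ages, as the 1.5M log2 fold change minus the P5 one. The difference was above 0 and called for 2 members, Itgav and Itgax, and below 0 and called for none, with 1.32% of all genes called in the first direction and 0.678% in the second. For Itgav the difference was 2.39 (SE 0.60, 95% interval 1.15 to 3.63, adjusted p = 0.0352, limma). For Itgax it was 1.92 (SE 0.45, 95% interval 0.98 to 2.85, adjusted p = 0.0236). The Itgax means lay above wild type at 1.5M and below it at P5, and neither of those comparisons passed the threshold alone. Itgb1 differed by 1.56 (SE 0.44, adjusted p = 0.0693) and Itgb7 by -2.46 (SE 0.79, adjusted p = 0.121). Both calls depended on single libraries and on settings. Thinned to equal depth the differences were 2.22 for Itgav (adjusted p = 0.137) and 1.52 for Itgax (0.193). A pseudocount of 0.1 also ended both (0.139 for Itgav and 0.0563 for Itgax), and quantile scaling that of Itgav (0.0563). That for Itgax was lost without P5 KO library 2 (adjusted p = 0.0629) or 3 (0.0569), P5 wt library 2 (0.0718), 1.5M KO library 3 (0.0685) or 1.5M wt library 1 (0.063). That for Itgav was lost without any one of the following libraries: P5 KO 1 (0.0743) or 3 (0.0689), P5 wt 1 (0.0635), 2 (0.0548) or 3 (0.0709), 1.5M KO 1 (0.0595), 2 (0.0674) or 3 (0.11), and 1.5M wt 1 (0.0914) or 2 (0.0706).

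Age was then compared within each genotype. These comparisons use the same 12 libraries as those between genotypes, so the values are set side by side and are not separate evidence. In KO cells Itgax and Itgb2, the 2 chains of CD11c/CD18, rose with age, and no member fell. The background was 1.72% of genes called higher and 1.43% lower. Itgax had 30.7, 32.8 and 39.3 scaled counts in 1.5M KO against 8.17, 3.64 and 3.6 in P5 KO, a log2 fold change of 2.60 (SE 0.32, 95% interval 1.93 to 3.26, adjusted p = 1.69e-05, limma). The call held in 22 of 22 alternatives. Itgb2 had 13.4, 8.95 and 9.58 in 1.5M KO against 3.63, 2.91 and 3.6 in P5 KO, a log2 fold change of 1.4 (SE 0.37, 95% interval 0.64 to 2.15, adjusted p = 0.0341). The groups of both genes were apart. The Itgb2 call was lost without any one library of its 2 groups: P5 KO 1 (adjusted p = 0.0821), 2 (0.095) or 3 (0.0663), or 1.5M KO 1 (0.195), 2 (0.0901) or 3 (0.11), and with a pseudocount of 0.1 (0.0837).

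Itgav and Itgb1 also had every 1.5M KO library above every P5 KO library, but neither passed. The share of all genes with groups apart is not given here for the age comparisons, so whether this pattern is unusual was not tested. For Itgav, whose P5 KO values were 3.63, 5.09 and 3.6, the log2 fold change was 1.09 (SE 0.42, adjusted p = 0.211). For Itgb1, at 11.8, 6.55 and 10.8 in P5 KO, it was 0.86 (SE 0.31, adjusted p = 0.162). Itga4 had 1.44, 1.99 and 2.4 scaled counts in 1.5M KO against 2.72, 6.55 and 7.2 in P5 KO, all lower (log2 fold change -1.07, SE 0.50, adjusted p = 0.331). Itgam averaged 11.2 ± 0.70 in 1.5M KO and 10.01 ± 3.14 in P5 KO, overlapping (log2 fold change 0.18). The median of the 9 members was 0.18, against -0.06 over all genes. Keratinocyte, neutrophil and erythroid lists were at most 19.2, 0.96 and 0.5 scaled counts in 1.5M KO, against the higher P5 KO values given above. Macrophage markers summed to 373 to 422 in 1.5M KO against 140 to 180 in P5 KO (4 of 9 tested called higher, 1 lower). Langerhans cell markers summed to 153 to 168 against 70.7 to 90.0 (4 of 10 called higher, 1 lower). The part of these lists in the integrin values was not tested.

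In wild-type cells Itga4 fell with age and no member rose, against 2.36% of all genes called higher and 2.84% lower. Itga4 had 0, 2.15 and 0 scaled counts in 1.5M wt against 2.13, 4.34 and 6.84 in P5 wt, or 3 molecules against 14. The second 1.5M library just reached the lowest P5 library, so the groups overlapped. The log2 fold change was -1.79 (SE 0.50, 95% interval -2.84 to -0.75, adjusted p = 0.0385, limma). It held in 13 of 22 alternatives. Leaving out P5 wt library 2 or 3 ended it (adjusted p = 0.0944 and 0.157), as did leaving out 1.5M wt library 1 or 3 (0.141 and 0.146). Also without a call were a pseudocount of 10 (0.0951), median-of-ratios (0.0642) and quantile scaling (0.0554), the comparison's libraries alone (0.0808) and thinning (log2 fold change -1.78, 0.204).

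Itgav had 0, 0.72 and 2.67 in 1.5M wt against 3.55, 3.25 and 3.91 in P5 wt, apart but uncalled (log2 fold change -1.31, SE 0.42, adjusted p = 0.0787). It passed without 1.5M wt library 3, its highest (adjusted p = 0.0141). Itgb1 had 5.53, 6.44 and 5.33 in 1.5M wt against 6.39, 14.1 and 10.7 in P5 wt (log2 fold change -0.70, SE 0.31, adjusted p = 0.225). Itgb7 had molecules in every 1.5M wt library, 9 in all, and in no P5 wt library. Its 1.5M mean was 2.99 times the limit for 0 molecules over the P5 group (adjusted p = 0.094, limma). Itgax averaged 16.2 ± 2.99 in 1.5M wt and 10.2 ± 4.42 in P5 wt (log2 fold change 0.68, adjusted p = 0.26). Itgb2 averaged 5.12 ± 2.27 in 1.5M wt and 2.77 ± 0.58 in P5 wt (log2 fold change 0.63, adjusted p = 0.375). The median of the 9 members was -0.59, against -0.22 over all genes.

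**Figure D3:**
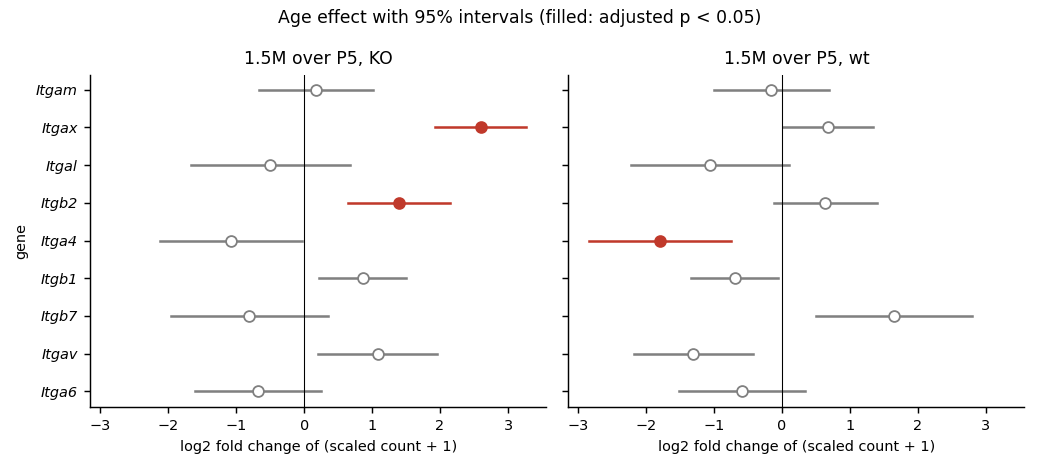
Log2 fold change of 1.5M over P5 on scaled count + 1 (horizontal axis) with its 95% interval for the 9 tested genes (vertical axis), in KO on the left and in wt on the right. Filled points passed an adjusted p of 0.05 in limma. Itgax (2.60) and Itgb2 (1.4) pass in KO, and Itga4 (-1.79) passes in wt.

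Over the 4 groups, Itgav averaged 9.85 ± 1.85 scaled counts in 1.5M KO and 1.13 ± 1.38 in 1.5M wt, with 4.11 ± 0.85 in P5 KO and 3.57 ± 0.33 in P5 wt. Only the P5 groups, in the middle of this order, overlapped. Itgb1 averaged 18.0 ± 0.61 in 1.5M KO and 5.77 ± 0.59 in 1.5M wt, with 9.72 ± 2.79 in P5 KO and 10.4 ± 3.86 in P5 wt. Its P5 groups overlapped each other, and P5 wt also overlapped 1.5M wt. Itgax ran from 1.5M KO (34.3 ± 4.48) through 1.5M wt (16.2 ± 2.99) and P5 wt (10.2 ± 4.42) to P5 KO (5.14 ± 2.63). Only the highest of these 4 groups was clear of its neighbour. Itgb2 stood at 10.7 ± 2.42 in 1.5M KO, with the other 3 groups below it and overlapping at 2.77 to 5.12. The nearest profiles to a member were sought among 1197 genes with a mean of at least 5, by the root mean square difference of centred log2 values over the 12 libraries. For Itgav these were Cyba (0.331), Gpx1 (0.438) and Csf2ra (0.537), where the median gene was at 1.087. For Itgb1 they were Qsox1 (0.306), Snx2 (0.311) and Myh9 (0.314), with a median of 0.77.

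Promoter windows show the letters upstream of the members whose transcripts were called. RefSeq windows (GRCm38.p6, the mm10 build) of 300 bases, from 250 before to 50 after the annotated start, matched 6 of the 10 members. The letters TGTGGT and TGCGGT, the core that Runx factors recognise, were searched on both strands. The 2 motifs do not overlap each other in these windows. They were found in 2 of the 6 windows (33.3%), against 22.4% of all 32851 windows, and the matches are in capitals. Itgax has TGTGGT 14 bases after the start, and Itga4 has it on the opposite strand, read here as ACCACA, 60 bases before the start. Itgav, Itgb1, Itgam and Itgb7 hold neither set of letters in their window. Itgb2, called with age in KO, had no matching window and was not searched. Shown 5′ to 3′ along the gene are the windows of the 4 other called members.
Itgav, chr2:83724147-83724446, + strand: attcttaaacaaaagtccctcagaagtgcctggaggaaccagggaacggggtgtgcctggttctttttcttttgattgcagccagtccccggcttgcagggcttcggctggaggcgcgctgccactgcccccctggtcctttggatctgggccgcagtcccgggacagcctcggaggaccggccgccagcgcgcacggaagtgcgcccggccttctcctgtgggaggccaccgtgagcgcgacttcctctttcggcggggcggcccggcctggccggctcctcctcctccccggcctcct
Itgb1, chr8:128685404-128685703, + strand: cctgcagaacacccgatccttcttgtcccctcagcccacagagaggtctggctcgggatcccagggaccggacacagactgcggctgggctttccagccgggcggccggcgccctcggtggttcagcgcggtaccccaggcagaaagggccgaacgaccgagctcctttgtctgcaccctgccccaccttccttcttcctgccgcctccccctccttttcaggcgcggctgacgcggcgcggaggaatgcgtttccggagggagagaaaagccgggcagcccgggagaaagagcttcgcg
Itgax, chr7:128129300-128129599, + strand: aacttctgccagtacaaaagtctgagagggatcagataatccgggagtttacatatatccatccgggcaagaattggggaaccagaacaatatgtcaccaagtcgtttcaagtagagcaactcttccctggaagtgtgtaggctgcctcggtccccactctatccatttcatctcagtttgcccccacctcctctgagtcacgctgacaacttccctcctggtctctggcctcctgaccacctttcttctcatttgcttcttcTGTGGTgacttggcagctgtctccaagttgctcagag
Itga4, chr2:79255176-79255475, + strand: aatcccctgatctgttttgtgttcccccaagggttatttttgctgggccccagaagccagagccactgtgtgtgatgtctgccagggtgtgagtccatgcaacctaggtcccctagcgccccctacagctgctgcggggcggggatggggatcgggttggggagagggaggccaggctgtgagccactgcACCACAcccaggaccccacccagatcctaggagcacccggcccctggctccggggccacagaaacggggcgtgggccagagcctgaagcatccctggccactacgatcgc

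By the GENCODE M21 annotation of the same build, Itgav spans chr2:83724397-83806916 on the plus strand and Itgb1 chr8:128685654-128733200 on the plus strand. Itgax (chr7:128129547-128150657) and Itgam (chr7:128062640-128118491) are neighbours on the plus strand of chromosome 7. Gm49368, a predicted coding gene on the same strand, overlaps Itgam, and the use of strand in counting is not given in the sources used here. Reads from Itgam and Gm49368 may therefore be hard to separate, and likewise those of Itgav and Gm13684 and of Itga4 and Cerkl, which overlap on opposite strands. All values of the 10 members were whole molecules, none shared out between genes.

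Transcripts of further integrin chains, which include partners of alphav and beta1, were compared in the same libraries. Whether chains paired as protein or shared a cell was not tested. Of 16 further subunits, 5 were tested and 3 rose in 1.5M KO against 1.5M wt, none falling, with a median log2 fold change of 1.81. Over all tested genes 3.24% were called higher and 2.04% lower at 1.5M, with a median of 0.09. Itgb5, an alphav partner that binds vitronectin, had 11.03, 9.94 and 7.67 scaled counts in 1.5M KO and no molecule in 1.5M wt, with 59 molecules over the 3 KO libraries. Its mean was at least 11.5-fold higher (adjusted p = 4.11e-06, limma). Itga9, a beta1 partner, had 3.36, 7.46 and 5.75 in 1.5M KO and none in 1.5M wt, at least 6.64-fold higher (adjusted p = 0.00074). Itga5, the beta1 partner in the fibronectin receptor, had 8.63, 8.95 and 8.14 in 1.5M KO against 2.76, 0 and 4.44 in 1.5M wt (log2 fold change 1.81, adjusted p = 0.0348). All 3 genes were apart between the genotypes, as were 13.9% of all tested genes upward. The calls for Itgb5 and Itga9 held in 22 of 22 alternatives, while that for Itga5 ended when 1.5M wt library 2 was left out (adjusted p = 0.24) or any of 1.5M KO libraries 1 (0.0886), 2 (0.0968) and 3 (0.0851). It also ended with a pseudocount of 0.1 (0.13), the comparison's libraries alone (0.0764) and thinning (0.114). At P5 none of the 5 was called, and Itgb5 had 3.63, 2.91 and 9.6 in P5 KO against 6.39, 5.42 and 6.84 in P5 wt.

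Itgb5 thus had no molecule in 1.5M wt against 21 in P5 wt, and its fall with age in wild type was called (at least 7.48-fold lower, adjusted p = 6.24e-05). Its knockout effect was larger at 1.5M than at P5, by 3.70 on the log2 scale (adjusted p = 0.000362), and this call held in 21 of 21 alternatives. Itgb6 and Itgb8, the alphav partners best known for releasing TGF-β from its latent form, were at 0 in all 12 libraries. Itgb3 gave 2 molecules in 1.5M KO and none in 1.5M wt, and 1 in P5 KO and none in P5 wt. No further subunit was called with age in KO.

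**Figure D4:**
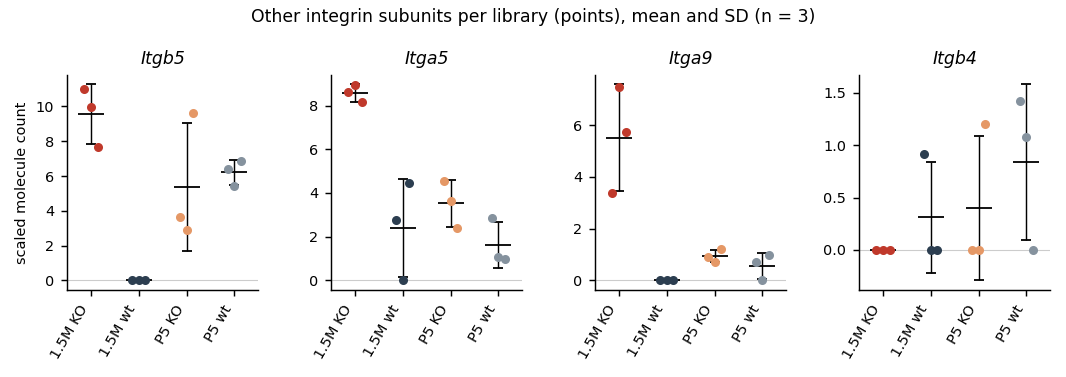
Scaled molecule counts of Itgb5, Itga5, Itga9 and Itgb4 (vertical axis, linear, a separate scale for each gene) in the libraries of 4 groups (horizontal axis). Points are libraries 1 to 3, and bars and whiskers are mean and SD. Itgb5 and Itga9 have no molecule in any 1.5M wt library, while Itgb5 reaches 7.67 to 11.03 scaled counts in 1.5M KO.

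Genes that switch integrins on or tie them to actin moved in both directions. Of 30 chosen, 23 were tested, and at 1.5M 2 were higher and 1 lower in KO (median log2 fold change 0.38, against 0.09 over all genes). Of all tested genes 3.24% were called higher and 2.04% lower in this comparison. Actn1, an actin cross-linker, had 5.27, 7.46 and 8.14 scaled counts in 1.5M KO and no molecule in 1.5M wt, at least 8.37-fold higher (adjusted p = 6.69e-05, limma). Flna, a filamin that binds beta tails and actin, had 33.1, 32.3 and 30.2 in 1.5M KO against 7.37, 15.0 and 10.7 in 1.5M wt (log2 fold change 1.50, adjusted p = 0.00161, and 1.36 with an adjusted p of 0.0764 when thinned to equal depth). Vasp, an actin polymerisation factor, was lower at 11.03, 13.4 and 17.3 in 1.5M KO against 38.7, 37.2 and 38.2 in 1.5M wt (log2 fold change -1.41, adjusted p = 0.00129). Talin and leukocyte kindlin were not called. Tln1 averaged 21.1 ± 4.22 in 1.5M KO and 18.0 ± 4.44 in 1.5M wt, and Fermt3 6.98 ± 2.18 in 1.5M KO and 3.08 ± 1.43 in 1.5M wt. With age Actn1 fell in wild type, from 6 molecules in P5 wt, a mean 2.22 times the limit for 0 molecules. The call (adjusted p = 0.0444, limma) held in 5 of 22 alternatives. It was lost without any one library of P5 wt, 1.5M wt or 1.5M KO (0.0647 to 0.111) and with a replicate block (0.0545). It was also lost under both other filters (0.0503 and 0.0507), median-of-ratios (0.0658) or quantile scaling (0.0992), its libraries alone (0.0591), thinning (0.218) and a pseudocount of 10 (0.249). Its knockout effect was larger at 1.5M than at P5, by 2.86 (adjusted p = 0.0108), which was lost without 1.5M KO library 3 (0.0543) and when thinned to equal depth (0.161). No other gene of the list was called in any comparison.

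Of 23 signalling genes downstream of integrins, 21 were tested, and 2 were higher and none lower in 1.5M KO than in 1.5M wt (median log2 fold change 0.45, against 0.09 over all genes). Of all tested genes 3.24% were called higher and 2.04% lower in this comparison. Rac2, a small GTPase of blood cells, had 5.75, 6.96 and 11.98 scaled counts in 1.5M KO and none in 1.5M wt, at least 9.90-fold higher (adjusted p = 6.46e-06, limma). Fcer1g, an adaptor that carries immune receptor signals, had 47.0, 48.7 and 61.8 in 1.5M KO against 14.7, 15.0 and 15.1 in 1.5M wt (log2 fold change 1.74, adjusted p = 3.99e-05). For both genes every KO library was above every wt library, as for 13.9% of all tested genes. At P5, where 0.649% of all genes were called lower, the related adaptor Tyrobp was lower in KO, with 42.7, 65.5 and 50.4 against 98.1, 113 and 85.0 (log2 fold change -0.90, adjusted p = 0.0343, limma). Left-out libraries that ended the call were P5 KO library 1 (0.149) and 3 (0.0978) and P5 wt libraries 1 (0.091), 2 (0.138) and 3 (0.0616). It was lost as well with median-of-ratios (0.066) or quantile scaling (0.0706), a pseudocount of 0.1 (0.0715) and thinning (0.158), and so held in 13 of 22 alternatives. The knockout effect differed between ages for Tyrobp (1.41, adjusted p = 0.0121) and Fcer1g (1.4, adjusted p = 0.0299), both as 1.5M minus P5. Of all genes 1.32% were called in this direction. For Tyrobp the log2 fold change was 0.51 at 1.5M (adjusted p = 0.242) and -0.90 at P5. Thinning to equal depth ended both differences (adjusted p = 0.115 each). The Fcer1g difference was also lost with a pseudocount of 10 (0.0623) and without any one of 8 of the 12 libraries, P5 KO 1 or 2, P5 wt 1 or 3, 1.5M KO 3, or 1.5M wt 1, 2 or 3 (adjusted p = 0.0535 to 0.0936).

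With age in wild type 1 of these 21 genes rose and 3 fell, against 2.36% of all genes called higher and 2.84% lower. Rac2 was at least 7.76-fold lower in 1.5M wt than in P5 wt (adjusted p = 5.36e-05, limma). Fcer1g fell by 0.98 (adjusted p = 0.017) and Tyrobp by 0.94 (adjusted p = 0.00998) on the log2 scale, and Fgr, a Src-family kinase of myeloid cells, rose by 1.58 (adjusted p = 0.0349). Fcer1g missed the threshold with P5 wt library 1 (0.0781) or 3 (0.0537) left out, and Tyrobp with P5 wt library 2 (0.0574) or 1.5M wt library 1 (0.0754) left out. Median-of-ratios scaling and thinning also ended both calls (Fcer1g 0.0697 and 0.0585, Tyrobp 0.0623 and 0.0602), and a pseudocount of 10 that of Fcer1g (0.0503). The Fgr call was lost without P5 wt 1 (0.0769) or 2 (0.146), 1.5M KO 2 (0.0509) or 3 (0.0501), or 1.5M wt 1 (0.106), 2 (0.0998) or 3 (0.0723), and with a pseudocount of 0.1 (0.069), its libraries alone (0.0846) or voom (0.0521). In KO cells 2 of these genes rose with age and none fell, against 1.72% of all genes called higher and 1.43% lower. They were Elmo1, part of a Rac activator, by 1.37 (adjusted p = 0.0327, limma), and the GTPase Cdc42, by 0.79 (adjusted p = 0.0494). Without 1.5M KO library 3 their adjusted p became 0.19 and 0.254. The Elmo1 call was also lost without 1.5M KO 1 (0.14) or 2 (0.0602) or P5 KO 1 (0.123) or 2 (0.086), and held in 14 of 22 alternatives. The Cdc42 call was also lost without 1.5M KO 2 (0.214), P5 KO 1 (0.186) or 3 (0.101), P5 wt 1 (0.0572) or 3 (0.0547), or 1.5M wt 1 (0.053) or 2 (0.0518), and held in 8 of 22 alternatives. Thinned to equal depth neither was called (0.178 for Elmo1 and 0.199 for Cdc42).

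Of 31 ligand genes 14 were above 0 in enough libraries to be tested, and 2 were lower and none higher in KO at each age. Of all tested genes 2.04% were called lower and 3.24% higher at 1.5M, and 0.649% lower and 1.15% higher at P5. Mfge8, a secreted RGD protein that bridges dying cells to alphav integrins, had 5.75, 5.97 and 12.9 scaled counts in 1.5M KO against 65.4, 66.5 and 78.2 in 1.5M wt (log2 fold change -3.03, adjusted p = 1.05e-05, limma). At P5 it had 0.91, 1.45 and 0 in KO against 8.53, 3.25 and 4.88 in wt (log2 fold change -1.89, adjusted p = 0.0111, lost without P5 KO library 3 at 0.0558 or P5 wt library 1 at 0.0682, and held in 17 of 22 alternatives). It rose with age in both genotypes, by 2.38 in KO (adjusted p = 0.00046) and 3.51 in wt (adjusted p = 2.17e-06). Cdh1 encodes E-cadherin, the alphaEbeta7 ligand. It averaged 9.47 ± 6.45 in 1.5M KO and 30.6 ± 4.16 in 1.5M wt (log2 fold change -1.79, adjusted p = 0.00383), and 4.83 ± 2.24 in P5 KO and 23.4 ± 1.47 in P5 wt (-2.15, adjusted p = 0.00357). Some of its values were not whole molecules, so reads may have been split with another gene. Mfge8 and Cdh1 are also on the Langerhans cell marker list. Fn1, which encodes fibronectin, and Thbs1 fell with age in KO by 3.24 (adjusted p = 0.00749) and 2.40 (adjusted p = 0.031) on the log2 scale. Of all genes 1.43% were called lower in that comparison. The Fn1 call held in 19 of 22 alternatives and was lost without P5 KO library 3 (0.0534), when thinned (0.0523) and with a pseudocount of 0.1 (0.172). That pseudocount also ended the Thbs1 call (0.23). The Thbs1 call was further lost without P5 KO 1 (0.114), 2 (0.0516) or 3 (0.107) or 1.5M KO 1 (0.14) or 3 (0.0973).

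Of 10 genes of latent TGF-β activation, 7 were tested, and Mmp9 alone was called between genotypes. Of all tested genes 3.24% were called higher and 2.04% lower in KO at 1.5M. Mmp9, a matrix protease, had no molecule in 1.5M KO against 24.9, 18.6 and 16.0 scaled counts in 1.5M wt, at least 40.9-fold lower (adjusted p = 2.78e-06, limma). It rose with age in wild type (log2 fold change 4.0, adjusted p = 1.5e-05), and its knockout effect differed between the ages by -5.09 (adjusted p = 0.000134). Tgfb1 had 2.4, 2.49 and 1.44 in 1.5M KO and no molecule in 1.5M wt, and was not called. Of 6 Runx and core-binding factor genes, all tested, Cbfb was lower in 1.5M KO (log2 fold change -2.05, adjusted p = 0.00132) and Runx1 higher. The same all-gene shares at 1.5M apply to this list. Runx1 had 15.4, 9.94 and 11.5 in 1.5M KO against 5.53, 3.58 and 2.67 in 1.5M wt (log2 fold change 1.45, adjusted p = 0.0389). It missed the threshold with 1.5M KO library 1 (0.164), 2 (0.0581) or 3 (0.0927) or 1.5M wt library 2 (0.108) or 3 (0.162) left out, and held in 13 of 22 alternatives. Thinning (0.0786), quantile scaling (0.0633), no filter (0.052) and a pseudocount of 0.1 (0.109) were among those that ended it. Runx3, the family member that Langerhans cells need, rose with age in KO, to 33.1, 21.4 and 19.6 in 1.5M KO against 6.36, 10.2 and 4.8 in P5 KO (log2 fold change 1.68, adjusted p = 0.00478, and 1.52 with an adjusted p of 0.0713 when thinned to equal depth). It averaged 24.7 ± 7.31 in 1.5M KO and 15.7 ± 5.04 in 1.5M wt, which was not called.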

How the data were processed

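Sorted epidermal cells were lysed by heat with ERCC spike-in RNA and reverse transcribed with barcoded oligo-dT primers, per the labels' protocols, so values come from near the 3' end of transcripts and do not separate splice forms sharing it. Reads were mapped to mm10 with TopHat2, per the submitters' processing notes; the annotation, counter, strand and scaling are not given in the sources used here. As deposited by the authors, the table holds a signal per symbol and library, which by its values is a molecule count scaled to 37092 per library: 92.7% to 94.9% of values above 0 were whole multiples of 1 step, within 0.01. As the values were scaled and not all whole, the main fit was not a count model. The voom and thinning alternatives used molecule numbers rounded to whole. Depth was 30913 to 77419 molecules per library.

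Values were analysed as log2(scaled count + 1), which understates changes of low genes. The 10023 genes with a value above 0 in 3 or more libraries entered a model of 4 group means, without covariates. It was fitted by limma 3.58.1 (trend option) under R 4.3.3. Two-sided p-values were adjusted over all tested genes by Benjamini-Hochberg, and 0.05 was the threshold. Adjusted p-values are from this fit unless an alternative or a left-out library is named beside them. The 5 comparisons share libraries. The script was tested on simulated data. An exact permutation of 3 against 3 libraries cannot go below 0.1 and was not used.

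Alternatives were other pseudocounts, filters and scalings, voom, libraries of a comparison alone, thinning to equal depth, a replicate block and leaving out each library. Filters were reapplied to the libraries fitted. Thinning was a single random draw, and the spread of its results over further draws was not tested. The named genes are the members and, of each list, up to 4 called genes per direction and comparison. The members and lists were chosen with earlier results of these data known. No amino acid sequences were used here.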

Additional observations from a re-analysis of the deposited data

Results flagged for a closer look

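The knockout effect differed between the ages for a pair of integrin genes. For Itgav the KO over wt log2 fold change was 2.54 at 1.5M and 0.15 at P5, a difference of 2.39 (adjusted p = 0.0352, limma), with all 3 KO libraries above all 3 wt libraries at 1.5M and overlap at P5. For Itgax it was 1.04 at 1.5M and -0.88 at P5, a difference of 1.92 (adjusted p = 0.0236), again with groups apart at 1.5M and overlapping at P5. The Itgax difference held in 14 of 21 alternatives and that of Itgav in 8 of 21. Macrophage, Langerhans and neutrophil marker sums differed between the same groups, and their part in these differences was not tested.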

How the results depend on the processing

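The count of called members in KO against wt at P5 was 0 in all alternatives. At 1.5M the count of 2 became 4 with a filter of at least 6 libraries, 4 with the libraries of the comparison alone, 5 with voom, 3 with a pseudocount of 10 and 1 with thinning, and was 2 to 3 with single libraries left out. For age in wt the count of 1 became 0 with a pseudocount of 10, median-of-ratios scaling, libraries alone or thinning, 2 with the 6-library filter or voom, and 0 to 1 with single libraries left out. For age in KO the count of 2 became 1 with a pseudocount of 0.1 and 3 with one of 10, and was 1 to 2 with single libraries left out. For the difference between the knockout effects the count of 2 became 0 with a pseudocount of 0.1 or thinning, 4 with the 6-library filter, 3 with a pseudocount of 10 or voom and 1 with quantile normalization, and was 0 to 2 with single libraries left out. The cause was not tested, except that thinning leaves fewer molecules by construction and leaving out a library fewer samples.

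Among the alternative values of members, 17 changed direction, all of values that were not called. Itga6 in the difference became 0.46 with a pseudocount of 0.1. With median-of-ratios scaling Itgb1 at P5 became 0.012 and Itgam with age in wt 0.024, which quantile normalization made 0.033. Thinned, Itgb2 at P5 became -0.50. With single libraries left out, Itgam with age in wt covered -0.50 to 0.37, Itgam in the difference -0.19 to 0.68, Itgal in the difference -0.11 to 1.10, Itga4 at P5 -0.077 to 0.63, Itgb1 at P5 -0.35 to 0.17, Itga6 at P5 -0.017 to 0.93 and Itga6 in the difference -0.60 to 0.35.

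A fit with the replicate block called 0 members at P5, 2 at 1.5M, 1 with age in wt, 2 with age in KO and 2 in the difference. The library numbers share no source in the labels, and deviations of same-numbered libraries correlated at -0.055 to 0.109 over 1197 genes, so no pairing was assumed. Over all genes the main counts of calls and their ranges were 180 (72 to 194) at P5, 529 (337 to 809) at 1.5M, 522 (277 to 616) for age in wt, 315 (169 to 733) for age in KO and 200 (108 to 320) for the difference. For age in wt the split of 237 higher and 285 lower became 289 and 184 with median-of-ratios scaling and 277 and 226 with quantile normalization, and for age in KO voom turned 172 and 143 into 233 and 500. Depth limits the members: Itgal, Itgb7, Itgae and Itga6 had at most 9 molecules in every group, and Itgb2 had 9 in P5 wt. The called genes Itga4 and Itgav had 3 and 4 molecules in 1.5M wt.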
